A study of Mus musculus with 172 samples.

Results

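The 10 genes described here encode transcription factors of naive pluripotency: Nanog, Sox2, Esrrb, Klf2, Klf4, Klf5, Tfcp2l1, Zfp42, Tbx3 and Prdm14. They were picked by symbol, with earlier results of these data known, and are 10 of the 49671 genes counted in the files. OCT4, the product of Pou5f1, is the factor that was removed, and the question asked of each gene was whether its RNA was still present without OCT4, at which stage, and together with how many of the others in 1 cell.

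The data were single-cell RNA-seq counts from 172 cells of the inner cell mass (ICM) of 19 mouse embryos of mixed genetic background, from matings between Pou5f1 +/- mice. At embryonic day (E) 3.5, 4 embryos were MUT (Pou5f1 -/-) and gave 29 cells, 5 were WT and gave 42, and 2 were HET (Pou5f1 +/-) and gave 16. At E4.5, 2 embryos were MUT and gave 19 cells. The 6 control embryos of that stage were 2 WT (22 cells) and 4 HET (44 cells), so that most controls were HET at E4.5 and WT at E3.5. The study labelled these 66 cells epiblast (EPI, 37 cells) or primitive endoderm (PrE, 29 cells) from these same transcriptomes. Trophectoderm (TE) had been removed by immunosurgery and its lysate used for genotyping, WT and HET served together as controls, and the MUT embryos had lacked the zygotic gene from fertilization and carried whatever maternal product remained.

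The factors form a network in which each binds regulatory DNA of the others and of itself, and OCT4 and SOX2 bind side by side at a composite element. Several members sit at the end of signalling pathways: Klf4 and Tfcp2l1 are targets of STAT3, Esrrb is derepressed when GSK3 is inhibited, and Klf2 can replace other Kruppel-like factors. The network is read in embryonic stem cells and in the preimplantation epiblast, and it is dismantled after implantation.

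The upstream sequences of Nanog, Zfp42 and Tfcp2l1 are shown because the results turn on these genes: Zfp42 and Tfcp2l1 fell at E3.5 without OCT4, and Nanog was the most abundant factor in MUT cells. RefSeq promoters (GRCm38.p6) matched 7 of the 10 factors by symbol, and each run below is the 250 bases before the RefSeq start, 5′ to 3′ on the gene's strand. Capitals mark a match, on either strand, to the octamer ATGCAAAT or to the composite of CATTGT and ATGCAAA with 1 base between them.
Nanog, chr6:122707239-122707488, plus strand: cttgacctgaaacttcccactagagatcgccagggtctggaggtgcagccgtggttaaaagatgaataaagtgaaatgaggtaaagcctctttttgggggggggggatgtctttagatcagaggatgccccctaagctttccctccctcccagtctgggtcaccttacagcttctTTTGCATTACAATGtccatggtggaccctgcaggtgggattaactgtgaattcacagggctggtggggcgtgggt
Zfp42, chr8:43307010-43307259, minus strand: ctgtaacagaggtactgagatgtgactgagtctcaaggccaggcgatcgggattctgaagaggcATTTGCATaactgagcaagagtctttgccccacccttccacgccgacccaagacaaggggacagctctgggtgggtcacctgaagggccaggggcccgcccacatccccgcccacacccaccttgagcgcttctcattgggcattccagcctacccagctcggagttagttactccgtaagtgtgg
Tfcp2l1, chr1:118627695-118627944, plus strand: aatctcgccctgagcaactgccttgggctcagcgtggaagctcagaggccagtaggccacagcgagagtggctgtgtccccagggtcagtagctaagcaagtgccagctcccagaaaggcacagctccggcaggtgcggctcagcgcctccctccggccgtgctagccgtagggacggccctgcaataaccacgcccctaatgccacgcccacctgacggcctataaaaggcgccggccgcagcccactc
The composite was found in 2 of the 32851 promoter windows of 300 bases (0.00609%), and both are overlapping Nanog windows, with the match at positions -75 to -62 from the start in the run printed. The octamer was found in 1.74% of windows, among them that of Zfp42. Taken alone, ATGCAAA occurred in 4.63% of windows, including those of Sox2, Nanog and Zfp42, and CATTGT in 12.6%, including those of Nanog, Esrrb and Pou5f1. Tfcp2l1 had no match to any of the 4 strings. These matches describe letters and not sites that were bound.

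Counts assigned to genes ran from 363819 to 4644070 a cell. Cells were summed by embryo, since cells of an embryo are not independent, and the 25 sums held 2736296 to 17453036 counts. The level of an embryo sum is given as CPM (a share of the library's counts after TMM scaling, on 1 scale for all sums). The CPM of a single cell, used also for marker sums, is a share of that cell's own counts without TMM scaling. A factor is said to have risen or fallen when its adjusted p, from edgeR's quasi-likelihood test on embryo sums across all genes tested, was under 0.05. In such a sum, fewer cells with a factor and less of its RNA in each cell cannot be told apart. All E3.5 cells were on 1 plate and all E4.5 cells on the other, so stage and plate cannot be told apart either. Groups of embryos that do not overlap are given as a description, since the share of all genes without overlap was not counted.

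The targeted gene followed its labels. Pou5f1 was at 5.99, 3.64, 2.76 and 5.01 CPM in the 4 E3.5 MUT embryos, against a lowest value of 199.5 in the 7 WT/HET embryos (median 268.9, highest 431.4), and no Pou5f1 count was found in the 19 E4.5 MUT cells, which allows a share of cells with a count of up to 15.8%. The lineage labels came from these same transcriptomes, so their markers are given as a description and not as a check. The summed level of 17 PrE markers ran from 7632 to 43025 CPM in PrE cells and from 114 to 809 in EPI cells. In the 2 E4.5 MUT embryos the mean summed level of the 17 PrE markers was 1405 and 2296 CPM a cell, against 8863 to 20750 in PrE and 366 to 629 in EPI, and that of 7 EPI markers 449 and 1021, against 4473 to 6641 in EPI and 293 to 2130 in PrE. Gdf3 and Nodal of the EPI markers and Sox7, Foxa2 and Hnf4a of the PrE markers were at 0 in all 19 cells. All 17 TE markers had at least 1 count among the 19 MUT cells, as did 13 of them in EPI cells and 15 in PrE cells. Their mean summed level was 9036 and 10492 CPM in the 2 MUT embryos, against 183 to 453 in EPI and 969 to 1914 in PrE. A sum does not show each marker, and the paper reports Tead4, which is among them, as down-regulated in MUT cells.

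In WT/HET cells of the E3.5 ICM all 10 factors were present, at very unequal levels. Per kilobase of exon (FPKM), Nanog, the homeodomain factor, stood first with 289.6 ± 54.5 (SD, n = 7), followed by the zinc finger factor Zfp42 (Rex1) with 145.7 ± 10.9 and by Tfcp2l1, a grainyhead-like factor, with 76.3 ± 11.1. These 3 differed from each other by more than their SDs. The Kruppel-like factors Klf2 (33.04 ± 10.7) and Klf5 (27.3 ± 7.03) and the T-box factor Tbx3 (23.6 ± 4.15) did not differ from each other beyond their spread. Sox2, which encodes the partner of OCT4 (13.4 ± 3.61), and Klf4 (12.9 ± 4.69) were lower and did not differ from each other beyond theirs. Lowest were Prdm14, a repressor of lineage genes and of DNA methylation (5.37 ± 2.96), and the orphan nuclear receptor Esrrb (4.97 ± 1.46).

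Without OCT4 at E3.5, 2 of the 10 factors changed and both fell, where 6.18% of the 12075 genes tested were called in either direction. Zfp42 was at 139.7, 177.9, 168.4 and 117.5 CPM in the MUT embryos and ran from 243.1 (median 282.7) to 293.8 in WT/HET. It fell by 0.85 on the log2 scale (SE 0.14, adjusted p = 0.00549). Tfcp2l1 was at 523.5, 286.0, 359.4 and 337.7 CPM in MUT and ran from 564.6 (median 758.7) to 845.3 in WT/HET. Its log2 fold change was -0.92 (SE 0.18, adjusted p = 0.0121). For both genes every MUT embryo was below every control embryo, MUT embryo 10 coming nearest for Tfcp2l1 and MUT embryo 12 for Zfp42. Both were called under each of the 17 alternatives, with adjusted p up to 0.0186 for Zfp42 and 0.0359 for Tfcp2l1.

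Klf2 had the largest fold change of the 10 factors and missed the threshold. It stood at 7.45, 38.1, 21.04 and 5.01 CPM in the MUT embryos, against 27.6 (median 63.9) to 82.4 in WT/HET, so that 3 of 4 MUT embryos lay below every control and MUT embryo 12 lay within them. The log2 fold change was -1.75 (SE 0.51, adjusted p = 0.0617), and without MUT embryo 12 it was -2.41 with an adjusted p of 0.0160. Klf5, which also acts in the trophectoderm, had values on the other side: 295.7, 246.1, 239.7 and 139.2 CPM in MUT against 75.7 (median 154.6) to 184.5 in WT/HET. Its log2 fold change was 0.72 (SE 0.24, adjusted p = 0.101), and without MUT embryo 19, the lowest, it was 0.89 with an adjusted p of 0.0470. DESeq2 called both, with adjusted p of 0.00287 for Klf2 and 0.0475 for Klf5, and with cells weighted equally Klf2 was called (-2.64, adjusted p = 0.0156). Of all 12075 genes DESeq2 called 717 up and 890 down, and equal weighting 425 and 928. The summed TE markers ran from a mean of 1034 to 2123 CPM a cell in these MUT embryos and from 213 to 1268 in WT/HET, ranges that overlap, with Gata2 at 0 in MUT. Their part in the Klf5 values was not tested.

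For the other 6 factors MUT and WT/HET embryos overlapped at E3.5. Nanog was at 368.9, 920.5, 903.3 and 1029 CPM in MUT and ran from 412.6 (median 662.0) to 781.6 in WT/HET, with a log2 fold change of 0.32 (SE 0.24, adjusted p = 0.499). Embryo 10 was below all controls and the other 3 were above them. Sox2 (log2 fold change -0.19, SE 0.28), Esrrb (-0.28, SE 0.28), Klf4 (-0.41, SE 0.30) and Tbx3 (0.01, SE 0.21) all had adjusted p of 0.492 or more. Prdm14 varied most between MUT embryos, at 6.43, 53.9, 11.7 and 0 CPM, and its fold change had an SE of 0.93 and reversed without embryo 12 (-1.15 in place of 0.40). HET embryos were not called different from WT in any of the 10, where 0.0% of 13351 genes were called and 1056 had an unadjusted p under 0.05, and DESeq2 called none of the 10.

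**Figure D1:**
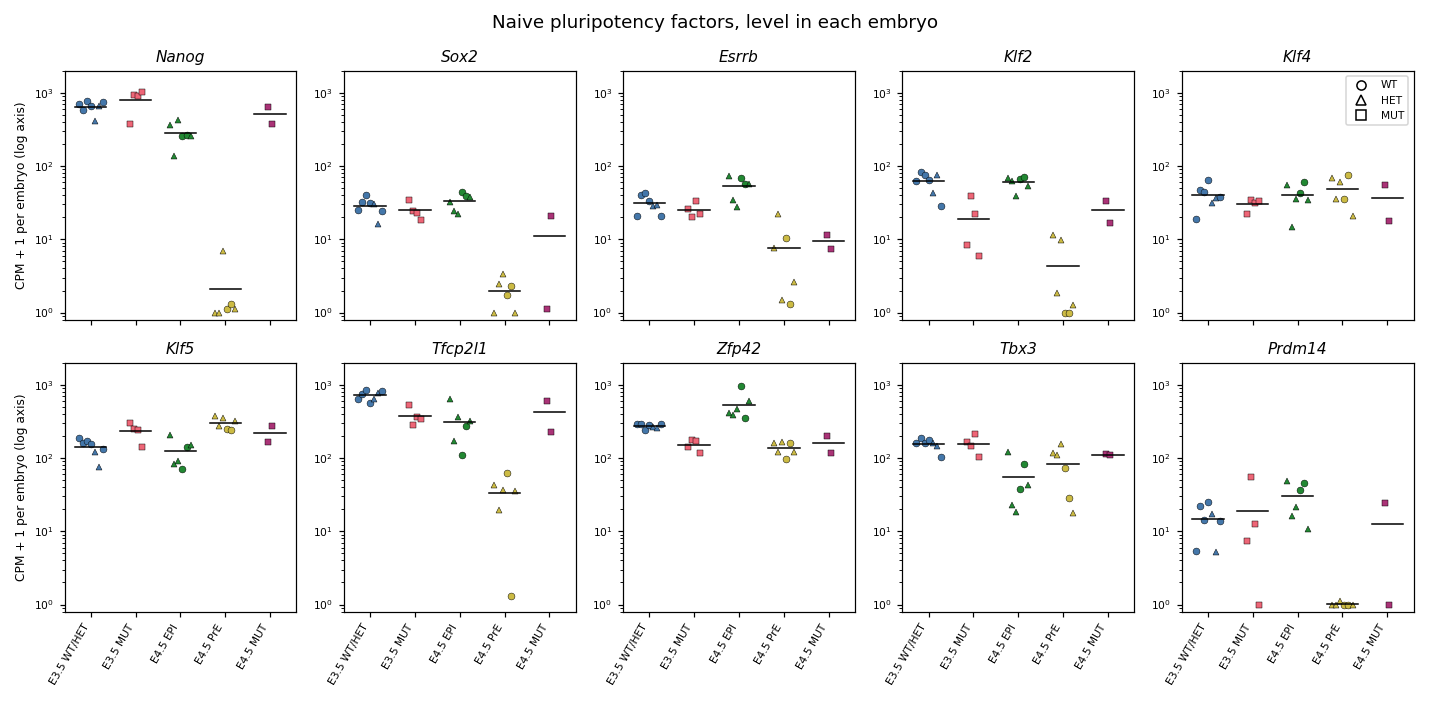
Level of each factor in each embryo, as CPM + 1 on a log axis, for the 5 groups on the x axis. Points are embryos (circles WT, triangles HET, squares MUT) and bars are means: Zfp42 and Tfcp2l1 of E3.5 MUT lie wholly below E3.5 WT/HET, and Nanog, Sox2, Klf2 and Prdm14 have their lowest group means in PrE.

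Between E3.5 and the E4.5 EPI of control embryos 4 of 10 factors were called, which is near the share over all genes, 31.9% of 11142, and stage and plate cannot be told apart. Nanog fell by 1.21 on the log2 scale (SE 0.22, adjusted p = 0.000613), from 649.2 ± 122.2 to 283.0 ± 96.3 CPM (SD, n = 7 and 6). Tfcp2l1 fell by 1.21 (SE 0.31, adjusted p = 0.00715) and Tbx3 by 1.55 (SE 0.39, adjusted p = 0.00695). Zfp42 rose by 0.94 (SE 0.20, adjusted p = 0.001995), to 528.8 ± 223.6 CPM, and no EPI sum overlapped the E3.5 embryos. Esrrb missed the threshold (0.79, SE 0.29, adjusted p = 0.0532), and DESeq2 called it. Zfp42 stood first per length in EPI with 281.1 ± 118.9 FPKM, above Nanog with 126.2 ± 43.0, and Tbx3 last with 8.09 ± 6.07.

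The EPI and PrE cells of the control embryos are compared as a description, with no test, because the labels came from the same RNA. Nanog ran from 138.2 (median 263.2) to 418.7 CPM in EPI and from 0 (median 0.118) to 5.87 in PrE. Sox2 ran from 20.9 to 42.6 in EPI and from 0 to 2.33 in PrE, and Klf2 from 37.6 to 70.1 and from 0 to 10.3. Prdm14 had 1854 counts in the EPI sums and 1 count in the PrE sums. Esrrb (26.3 to 72.9 against 0.323 to 21.2 CPM), Tfcp2l1 (109.5 to 635.2 against 0.323 to 62.1) and Zfp42 (351.3 to 947.6 against 96.4 to 166.8) were lower in PrE without being absent. Klf4 and Tbx3 overlapped between the lineages, and Klf5 was higher in PrE, at 243.4 (median 296.3) to 376.8 CPM against 69.2 (median 115.1) to 206.1 in EPI. In PrE the factors above 10 FPKM were Zfp42 (72.3 ± 15.0), Klf5 (58.2 ± 10.9), Klf4 (15.9 ± 7.12) and Tbx3 (12.4 ± 8.03).

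The comparisons of E4.5 MUT with EPI, PrE and the whole ICM share the MUT embryos, and the ICM sums hold the EPI and PrE cells. At E4.5 the MUT cells came from 2 embryos, embryo 3 with 11 cells and embryo 8 with 8, and each factor has 2 values. Against EPI, the lineage that normally holds the network, 1 of 10 factors was called, Esrrb, where 4.92% of 12953 genes were. Esrrb was at 10.3 and 6.42 CPM in MUT and ran from 26.3 (median 56.1) to 72.9 in EPI. It fell by 2.60 on the log2 scale (SE 0.64, adjusted p = 0.0479), and although both MUT embryos were below every EPI sum, the call was lost when any 1 of EPI embryos 1, 2, 5, 6 or 7 or either MUT embryo was left out (adjusted p 0.0575 to 0.247). It was also lost with DESeq2's size factors (0.0541), with no filter (0.0655), without shallow cells (0.0589) and with WT controls only (0.149), and was called by DESeq2 (0.000303). The EPI label rests on the same transcriptomes as this test. The TE markers given above, 9036 and 10492 CPM in the MUT embryos against 183 to 453 in EPI, moved with the same contrast, and their part in the differences was not tested.

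Zfp42, Klf2 and Sox2 also had both MUT embryos below all EPI sums, and edgeR called none of them. The share of all genes separated in this way was not counted. With cells weighted equally all 3 were called by limma: Zfp42 with a log2 fold change of -2.67 (adjusted p = 0.00188), Klf2 with -2.56 (0.0133) and Sox2 with -2.92 (0.0378). Of all 12953 genes limma then called 716 up and 763 down. Zfp42 was at 202.0 and 117.1 CPM (log2 fold change -1.69, SE 0.42, adjusted p = 0.0513), close to the 136.0 ± 28.2 of PrE. Without EPI embryo 5 the change was -1.40 with an adjusted p of 0.0461, and DESeq2 gave 0.000339. Klf2 was at 32.5 and 15.5 CPM (log2 fold change -1.28, SE 0.49, adjusted p = 0.182).

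Sox2 and Prdm14 separated the 2 MUT embryos from each other. Sox2 was at 0.115 CPM in embryo 3 and 20.1 in embryo 8, the latter just under the lowest EPI sum of 20.9, and Prdm14 at 23.2 in embryo 3 and 0 in embryo 8. With both embryos neither was called (Sox2 log2 fold change -1.62, SE 1.28, adjusted p = 0.556; Prdm14 -1.30, SE 1.54, adjusted p = 0.744). With embryo 3 as the only MUT embryo Sox2 was called (adjusted p = 0.0230), and with embryo 8 as the only one Prdm14 was called (adjusted p = 0.0470), each in a fit in which the lone embryo was taken to vary like the EPI sums. Otx2, the factor of the later epiblast, split in the same sense as Prdm14, at 49.1 and 0.0783 CPM.

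The remaining 5 factors were not called against EPI. Nanog was at 637.9 and 375.2 CPM in MUT, with embryo 3 above every EPI sum (log2 fold change 0.87, SE 0.36, adjusted p = 0.2197). Tfcp2l1 was at 609.0 and 228.7 CPM, inside the EPI range (0.45, SE 0.58, adjusted p = 0.775). Klf5 was at 166.6 and 272.7 CPM (0.87, SE 0.43) and Tbx3 at 112.0 and 107.7 (1.06, SE 0.67), with Klf4 at 53.5 and 16.99 (-0.15, SE 0.66). When the mean log2(CPM + 1) of the cells was used, in which each cell weighs the same, the fold change of Nanog turned to -2.03 with an adjusted p of 0.0595. Of the 19 MUT cells, 6 had no Nanog count.

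Against PrE, 1 of the 9 factors tested was called, Nanog, where 3.81% of 12246 genes were. Its 2 MUT values compare with 5.87 CPM in the highest PrE sum (log2 fold change 8.83, SE 1.42, adjusted p = 0.00877), and without MUT embryo 3 the adjusted p was 0.0594. DESeq2 gave Nanog no adjusted p here. The PrE label rests on the same transcriptomes as these tests, so their adjusted p values are not independent of the labelling. Nanog was far lower in PrE than in EPI, and the part of the labelling in that low level was not tested. The log2 fold change of Tfcp2l1 was 3.74 (SE 0.90, adjusted p = 0.0538, and 0.000907 with DESeq2). With cells weighted equally limma called Tfcp2l1 (5.34, adjusted p = 0.00517) and Klf5 (-1.60, adjusted p = 0.0158) beside Nanog. Of all 12246 genes limma then called 506 up and 591 down. Both MUT embryos were above every PrE sum for Tfcp2l1 and also for Klf2. MUT and PrE overlapped for Sox2, Esrrb, Klf4, Klf5, Zfp42 and Tbx3.

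Against the whole ICM of the 6 control embryos, which needs no lineage label, 1 of 10 factors was called, where 7.37% of 14105 genes were. Nanog was above all 6 ICM sums (49.9, median 158.1, highest 231.8 CPM), by 1.70 on the log2 scale (SE 0.44, adjusted p = 0.0476). The call was lost when MUT embryo 3, MUT embryo 8 or ICM embryo 1, 4, 5, 6 or 7 was left out, with adjusted p from 0.0507 to 0.292, and also without shallow cells (0.0534), with WT controls only (0.150) and with cells weighted equally (0.377). In these ICMs 29 of 66 cells were PrE, with a mean Nanog level of 1.07 CPM. Esrrb (log2 fold change -1.95, SE 0.59, adjusted p = 0.0790) and Zfp42 (-1.14, SE 0.41, adjusted p = 0.135) were below all 6 ICM sums and were not called by edgeR, and DESeq2 called both. With cells weighted equally limma called Tfcp2l1 (2.46, adjusted p = 0.00727) and Zfp42 (-1.61, adjusted p = 0.00681). Of all 14105 genes limma then called 775 up and 995 down, and DESeq2 781 and 1605.

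**Figure D2:**
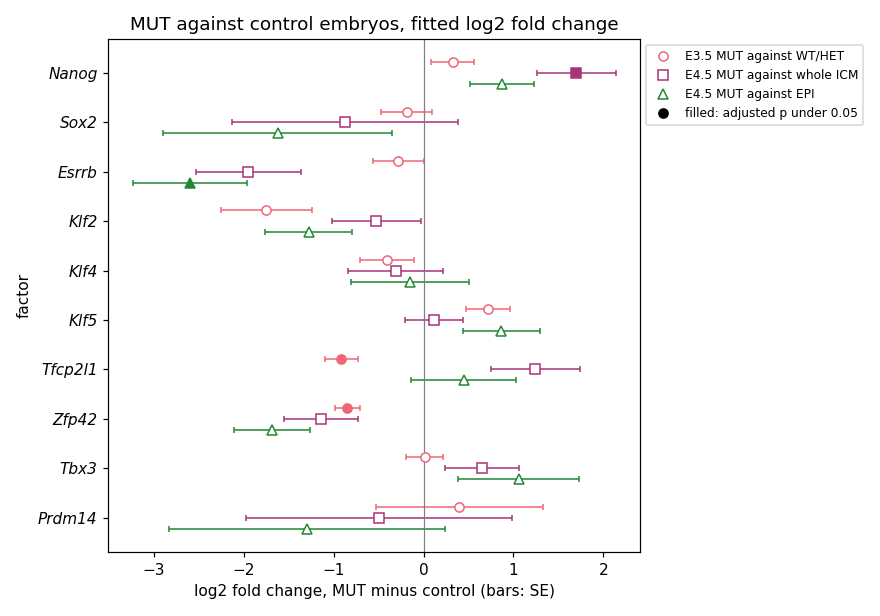
Fitted log2 fold change, MUT minus control, on the x axis for each factor on the y axis, with bars of 1 SE to each side. Circles are E3.5 MUT against WT/HET, squares E4.5 MUT against the whole ICM and triangles E4.5 MUT against EPI, filled where the adjusted p was under 0.05: Tfcp2l1 lies at -0.92 at E3.5 and at 1.24 at E4.5 against the whole ICM.

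Whether the effect of losing OCT4 itself differed between the stages was tested as an interaction, with 1 of 10 factors called, where 5.46% of 16410 genes were. Tfcp2l1 was 0.92 lower in MUT at E3.5 and 1.24 higher at E4.5 (SE 0.49, adjusted p = 0.179 for the latter alone), and the difference of these differences was 2.15 (SE 0.50, adjusted p = 0.0149). The WT/HET mean went from 720.4 ± 104.5 CPM at E3.5 to 180.1 ± 78.7 in the E4.5 ICM, and the MUT mean from 376.6 ± 102.6 to 418.8 ± 268.9. Without MUT embryo 3 it was 1.28 (adjusted p = 0.236), and with EPI in place of the whole ICM 1.41 (adjusted p = 0.154). The ICM sums mix EPI cells, with Tfcp2l1 at 312.0 ± 184.4 CPM, and PrE cells, with 32.3 ± 21.03 (SD, n = 6 each). The part of this mixture in the Tfcp2l1 difference was not tested. With EPI as control Esrrb was called instead (-2.27, adjusted p = 0.0311), against -1.68 (adjusted p = 0.0904) with the whole ICM.

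Within MUT embryos, no factor was called between E3.5 and E4.5 by edgeR or DESeq2, where 6.76% of 12714 genes were called by edgeR. With cells weighted equally limma called Nanog, whose log2 fold change was then -3.40 (adjusted p = 0.0108) against -0.69 over the sums, and Esrrb (-2.40, adjusted p = 0.0396). Of all 12714 genes limma then called 568 up and 1679 down. Without MUT embryo 8 edgeR called Sox2 (adjusted p = 0.0418). Esrrb was lower in both E4.5 embryos than in any of the 4 E3.5 embryos (19.04 to 32.8 CPM), with a log2 fold change of -1.56 (SE 0.64, adjusted p = 0.163). Nanog remained first per length in MUT cells at both stages, with 359.3 ± 132.2 FPKM at E3.5 and 225.9 ± 82.9 at E4.5 (SD, n = 4 and 2), and Esrrb last with 4.03 ± 0.998 and 1.39 ± 0.459.

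The number of factors held together by 1 cell was counted first with at least 1 count as the mark of presence. By that mark Pou5f1 itself was present in 21 of 29 E3.5 MUT cells (median 1.78 CPM), and at 10 CPM in 2. WT/HET cells held 9.45 ± 0.4004 of the 10 (mean over embryos, SD, n = 7) and MUT cells 8.85 ± 0.733 (n = 4). All 10 were found in 31 of 58 WT/HET cells and in 14 of 29 MUT cells. At a stricter 10 CPM the means were 8.88 ± 0.513 and 7.99 ± 0.924, 17 and 6 cells held all 10, and 44 of 58 WT/HET cells held 9 or more, against 12 of 29 MUT cells. Median depth was similar, with 1335828 counts in WT/HET and 1318327 in MUT cells.

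The factor most often missing was Prdm14 in both E3.5 groups, absent from 27 of 58 WT/HET and 14 of 29 MUT cells. After it came Klf2 in MUT cells, absent from 5 of 29 against 1 of 58, with a median of 15.2 CPM a cell against 56.3. The MUT embryos differed in this. Klf2 had counts in 2 of 5 cells of embryo 10 and 2 of 4 of embryo 19. It had counts in 10 of 10 cells of embryo 12 and 10 of 10 of embryo 17. Nanog, Klf5, Tfcp2l1 and Tbx3 were found in all 29 MUT cells. Tfcp2l1 had counts in every E3.5 cell of both groups, and its MUT cells ran from 101.1 (median 360.9) to 563.1 CPM and its WT/HET cells from 311.3 (median 685.4) to 1233. For Zfp42, 28 of 29 MUT cells had counts, with a median of 148.8 CPM against 270.3.

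At E4.5 a MUT cell kept 6.61 ± 0.731 of the 10 factors (n = 2), 6.09 in embryo 3 and 7.13 in embryo 8, between the 8.86 ± 0.509 of EPI (n = 6) and the 5.53 ± 0.711 of PrE (n = 6). The embryos of MUT and EPI did not overlap in this mean, the lowest EPI embryo holding 8.14, and embryo 8 of MUT was above the highest PrE embryo at 6.20 while embryo 3 was within the PrE range. No MUT cell held all 10, and 0 of 19 allows a share of up to 15.8% if cells are counted as independent, which cells of an embryo are not. The fullest 2 of 19 held 9, and the emptiest held 3. At 10 CPM the means were 5.77 ± 0.321 for MUT, 7.93 ± 0.795 for EPI and 4.17 ± 0.744 for PrE, and with cells thinned to 1 depth they were 6.56, 8.66 and 5.28 at 1 count. Median depth was 1609943 counts in MUT, 1681933 in EPI and 1772045 in PrE.

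**Figure D3:**
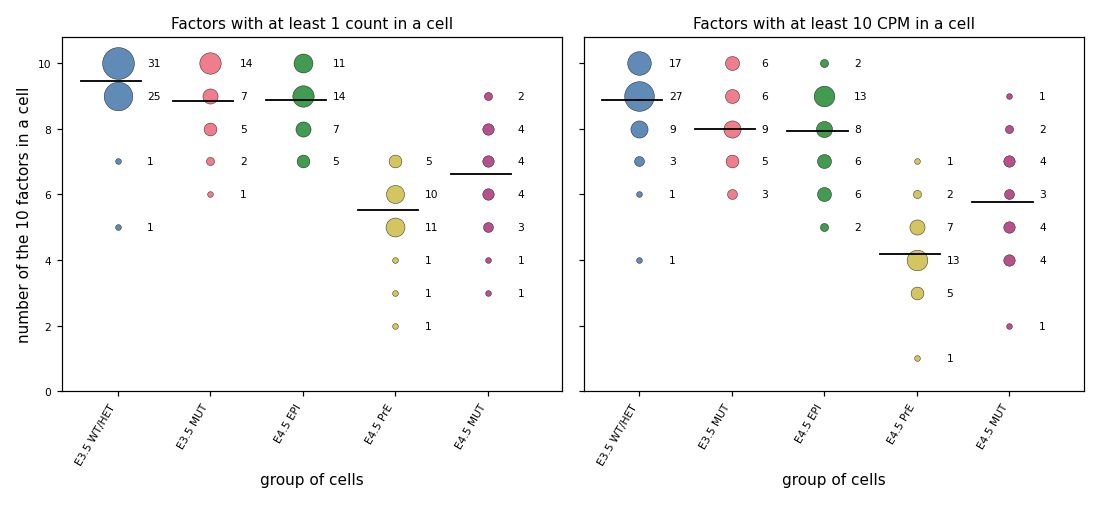
Number of the 10 factors found in each cell, at 1 count (left) and at 10 CPM (right), for the 5 groups on the x axis. The area of a disc and the number beside it give the cells with that number of factors, and bars are means over embryos: MUT cells at E4.5 spread from 3 to 9 factors at 1 count.

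The factors kept by E4.5 MUT cells fell into those nearly always present and those often absent. Klf5, Tfcp2l1, Zfp42 and Tbx3 each had counts in 18 of 19 cells. In PrE they were found in 29, 19, 27 and 27 of 29 cells, and in EPI in 37, 37, 37 and 26 of 37. Nearly constant presence of Klf5, Zfp42 and Tbx3 was thus also seen in PrE. Nanog and Klf2 were each found in 13 of the 19 MUT cells and Klf4 in 11. Sox2 and Esrrb were each found in 6 of 19, against 34 and 35 of 37 EPI cells and 6 and 11 of 29 PrE cells, and Prdm14 in 3. By embryo, Sox2 was found in 1 of 11 cells of embryo 3 and in 5 of 8 of embryo 8, Prdm14 in 3 of 11 and 0 of 8, and Esrrb in 3 of each. The 0 of 8 allows a share of up to 37.5%.

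**Figure D4:**
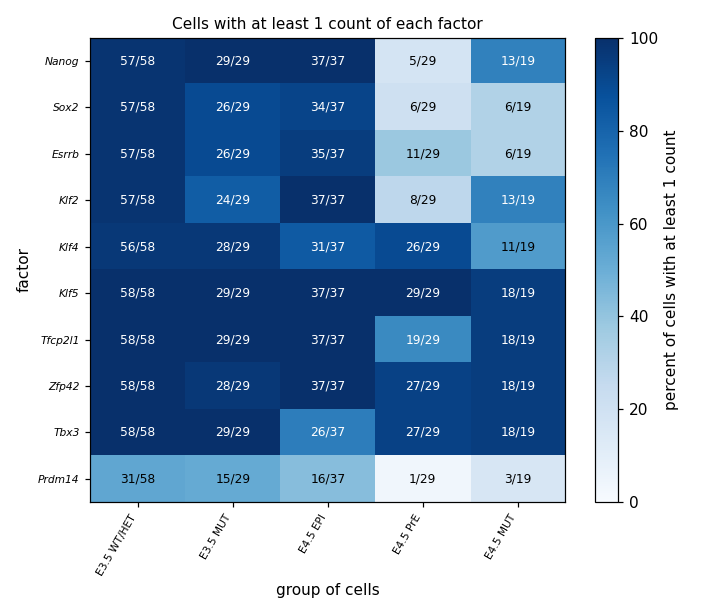
Share of cells with at least 1 count of each factor (rows) in the 5 groups (columns), as colour, with the number of cells written in. E4.5 MUT keeps Klf5, Tfcp2l1, Zfp42 and Tbx3 in 18 of 19 cells each and Sox2 and Esrrb in 6.

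Nanog varied widely among E4.5 MUT cells. Of the 19 cells, 6 had no count, 1 was at 0.715 CPM and 12 ran from 114.3 to 2077, with a median over all of 405.6, and 6 cells lay above the highest of the 37 EPI cells (703.2 CPM). The coefficient of variation was 1.16, against 0.580 in EPI, where every cell had counts, and 0.687 in E3.5 MUT. By embryo, 8 of 11 cells of embryo 3 and 5 of 8 of embryo 8 had Nanog. All of the 12 MUT cells with Nanog at 10 CPM or more also had Tfcp2l1 and Tbx3 at that level, 11 had Klf5, 10 had Zfp42, 4 had Sox2 and 3 had Esrrb. Of the 7 others, 6 had Tfcp2l1 and 5 had Tbx3 at that level, so that these were also found in cells without Nanog.

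The sets of factors held at 10 CPM differed from cell to cell. The 19 E4.5 MUT cells showed 16 different sets, 3 of them in 2 cells each. There were 25 sets in the 37 EPI cells, 14 in the 29 PrE cells, 16 in the 29 E3.5 MUT cells and 12 in the 58 E3.5 WT/HET cells. Among the E4.5 MUT cells, the fullest set held every factor but Sox2, and the emptiest held Klf4 and Klf5. The set of Klf4, Klf5, Zfp42 and Tbx3, found in 7 of 29 PrE cells and the most frequent there, was found in no MUT cell. In E3.5 WT/HET the most frequent set lacked Prdm14 only and was held by 23 of 58 cells, and in E4.5 EPI the same set was the most frequent, with 6 of 37. In E3.5 MUT the set of all 10 was the most frequent, with 6 of 29 cells, against 17 of 58 in E3.5 WT/HET.

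**Figure D5:**
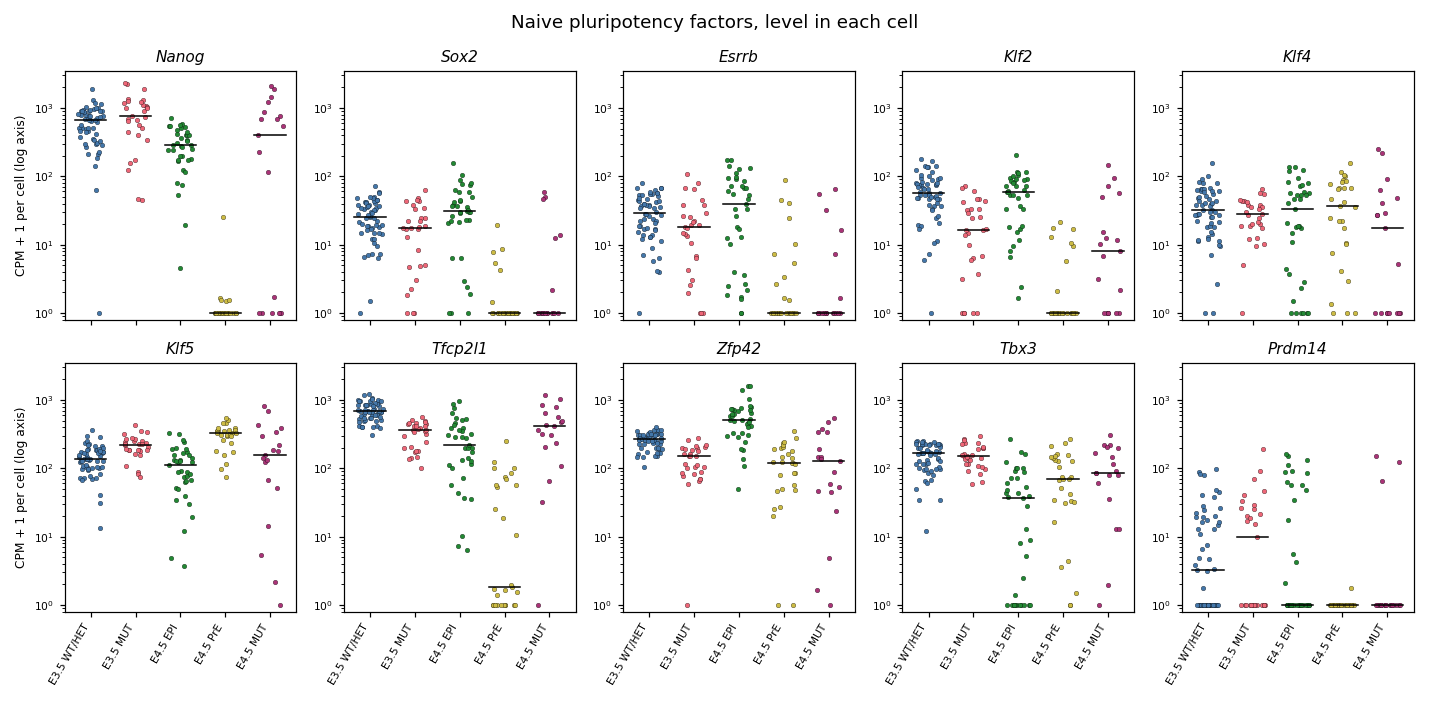
Level of each factor in each cell, as CPM + 1 on a log axis, for the 5 groups on the x axis. Points are cells and bars medians: Nanog of E4.5 MUT has 6 cells at 0 and reaches 2077 CPM, and Tfcp2l1 of E3.5 MUT lies lower than in WT/HET (median 360.9 against 685.4 CPM).

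Other genes of the pluripotency network were read from a list of 30. Of these 30 other regulators, 26 were tested in E3.5 MUT against WT/HET, 8 were lower and 1 was higher, where 2.98% and 3.2% of all genes were, and the median log2 fold change was -0.73, against -0.23 over the 10 factors and -0.02 over all genes. Gdf3, a TGF-beta family ligand, had 1 count in the 4 MUT sums and 65.4 to 131.5 CPM in WT/HET (adjusted p = 7.19e-07). Utf1, a chromatin factor, was at 0 to 3.11 CPM against 21.4 to 120.8 (adjusted p = 0.00477), Fgf4, the ligand that instructs PrE, at 0 to 8.80 against 18.2 to 86.3 (adjusted p = 0.0270), and the EGF-CFC co-receptor Tdgf1 was called as well (adjusted p = 0.00192). Fbxo15 was the 1 that rose, by 1.62 on the log2 scale (SE 0.26, adjusted p = 0.00511). Dppa3 was at 986.2 to 1317 CPM against 1212 to 2045 and was not called (adjusted p = 0.296).

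The same list at E4.5 held 9 of 30 genes lower and 1 higher in MUT against EPI, where 2.62% and 2.3% of all genes were, and 8 lower and 3 higher against the whole ICM, where 4.27% and 3.1% were. Gdf3 had no count in either MUT embryo, against 141.2 to 326.1 CPM in EPI. Utf1 was at 17.7 and 5.48 CPM against 243.9 to 697.3 (adjusted p = 0.00130), and Etv5, an ETS factor downstream of FGF signalling, fell by 3.51 on the log2 scale (SE 0.24, adjusted p = 6.85e-05). Dppa5a rose by 0.61 against EPI (SE 0.15, adjusted p = 0.0471). Against the whole ICM Tcl1 fell by 4.72 (SE 0.58, adjusted p = 0.00182), and Dppa2, Dppa5a and Fbxo15 rose by 1.65, 0.98 and 2.001. Fgf4, at 28.96 and 8.30 CPM, and Dppa3 were not called in either.

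Of 12 formative factors, which mark the epiblast on leaving the naive state, none of the 6 tested at E3.5 and none of the 8 tested against EPI was called, and against the whole ICM 1 of 9 was, the DNA methyltransferase Dnmt3a (log2 fold change -2.40, SE 0.42, adjusted p = 0.0101), where 4.27% of all genes were lower. Of the 5 genes of the LIF and STAT3 arm, 1 fell at E3.5, where 2.98% of all genes did, and 1 against the whole ICM, where 4.27% did, in both cases Il6st, the gp130 receptor subunit. Against EPI 0 of 5 were called by edgeR, Il6st having a log2 fold change of -6.61 (adjusted p = 0.0664). Il6st had 21 counts in the 4 E3.5 MUT sums and 5 in the 2 at E4.5, against 3.69 to 26.04 CPM in E3.5 WT/HET and 9.44 to 34.4 in the ICM (adjusted p = 0.0132 and 0.00513). Socs3, a STAT3 target that inhibits the pathway, was at 0, 17.5, 2.76 and 0 CPM in E3.5 MUT and 29.3 to 99.2 in WT/HET (edgeR, adjusted p = 0.0756). The highest MUT value was in embryo 12. Of the 4 MUT embryos, embryo 12 also had the most Klf2 and the least Tfcp2l1, and a link between these genes was not tested.

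The genes most like each factor were sought over the 25 sums, by Pearson's r of log2(CPM + 1) among 7842 genes with a mean of 10 CPM or more. The sums share lineage, stage and plate, so these are descriptions. Nanog was most like Rnf213 (0.95), Sox2 like Zfp219 (0.92) and Jam2 (0.90), Esrrb like Ttc39b (0.91) and Usp7 (0.88), and Klf2 like Pecam1 (0.91) and Msh6 (0.87). Tfcp2l1 was most like Pmm1 and Tdrp (0.90 each), Zfp42 like Sap30 (0.88) and Gsta3 (0.86), and Tbx3 like Kalrn (0.91) and Snx13 (0.85). Prdm14 was most like Otx2 (0.87) and Fgf4 (0.81). Klf4 had the lowest likeness, 0.69 to Abl1 and 0.61 to Bud31, and Klf5 was most like Col4a2 (0.81) and 1700025G04Rik (0.79). Among the factors, the highest value was 0.86 between Nanog and Tfcp2l1 and the lowest -0.72 between Klf5 and Zfp42.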

How the data were processed

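Single ICM cells were sequenced as Smart-seq2 libraries on 2 plates. According to the study's methods and the labels, the authors aligned reads to GRCm38 with STAR and counted them on Ensembl genes with HTSeq, and they deposited raw counts per gene for each cell left by their quality control. A strand setting is not given in the sources used here. Multimapped reads, a median of 19.7% to 41.1% a group, were not counted, and 5 rows naming no gene were left out. Symbols and exon lengths came from a GENCODE annotation of the same build. Tfcp2l1 shares 1.38% and Tbx3 1.74% of its exon bases with an overlapping gene. Groups came from the labels, and the embryo of each cell from the study's supplementary list.

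Cells were summed by embryo, the replicate, and tested with edgeR 4.0.16 (TMM, filterByExpr, quasi-likelihood test, Benjamini-Hochberg adjustment over all genes tested). The study tested cells with scde. Each result was repeated with limma 3.58.1 on the mean log2(CPM + 1) of cells, with DESeq2 1.42.0, with edgeR scaled by the size factors of DESeq2, and with every gene that had a count. It was also repeated without 9 shallow cells (counts below 0.5 of the stage median), with WT as the only controls, with each embryo left out and, for the interaction, with EPI as the E4.5 control. Some of the fits were also run on simulated data with known changes and the same dispersion for every gene. That setting differs from the data, where the E4.5 MUT embryos lay far apart for Sox2 and Prdm14, and no result rests on it. EPI and PrE sums of 1 embryo are paired by origin, and the correlation of their deviations over 7682 genes was 0.0101 to 0.0817. Cells were thinned to 661516 counts (E3.5) or 832934 (E4.5).

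The genes named were all 10 factors, Pou5f1, the 3 called genes of each list with the smallest adjusted p in each direction, Utf1, Gdf3, Fgf4, Dppa3, Otx2, Il6st and Socs3, and the 2 genes most like each factor, of which 1 is not reported here. The members and lists were chosen with earlier results of these data known. Intervals and limits cover counting error only and treat the cells of an embryo as independent.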

Additional observations from a re-analysis of the deposited data

Results flagged for a closer look

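Of 44 sets of embryo values searched for 1 value far from the others, 2 held one, and chance gives about 1 in 20. Both were in PrE embryo 4. Nanog was at 5.87 CPM there (58 counts), with the other 5 PrE sums from 0 to 0.323. Prdm14 was at 0.101 CPM, which is 1 count, with the other 5 at 0. The difference between MUT and WT/HET itself differed between E4.5 and E3.5 for Tfcp2l1 with the whole ICM as control, by 2.15 on the log2 scale (edgeR, adjusted p = 0.0149), and for Esrrb with EPI as control, by -2.27 (edgeR, adjusted p = 0.0311). For Tfcp2l1 the value was 1.28 without MUT embryo 3. With EPI as control it was 1.41 (edgeR, adjusted p = 0.154).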

How the results depend on the processing

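Counts of the 10 factors called moved as follows. With DESeq2 they were 4 at E3.5, 2 for E4.5 MUT against EPI, 3 against the whole ICM and 2 for the interaction. DESeq2 also called more of all genes tested than edgeR. At E3.5 it called 717 up and 890 down of 12075, and against EPI 571 and 1120 of 12953. Against the ICM the numbers were 781 and 1605 of 14105, and for the interaction 758 and 1058 of 16410. With cells weighted equally the factors called were 4 against EPI (Sox2, Esrrb, Klf2 and Zfp42), 3 against PrE (Nanog, Klf5 and Tfcp2l1), 2 against the ICM (Tfcp2l1 and Zfp42) and 2 between the MUT stages (Nanog and Esrrb). More of all genes were called then as well: 716 up and 763 down of 12953 against EPI, and 506 and 591 of 12246 against PrE. Against the ICM the numbers were 775 and 995 of 14105, and between the MUT stages 568 and 1679 of 12714. These limma fits used the CPM of single cells, without TMM scaling. Their median log2 fold change over all genes was -0.23 at E3.5, -0.20 against EPI and -0.24 against PrE. It was -0.17 against the ICM and -0.44 between the MUT stages. By edgeR the same medians were -0.02, -0.03, 0.05, -0.10 and -0.03. With DESeq2's size factors the factors called were 0 against EPI and 2 against PrE, and with no filter 2 against PrE. Without shallow cells, and with WT controls only, they were 0 against EPI and 0 against the ICM. With 1 embryo left out they ran from 0 to 1 against EPI, 0 to 2 against PrE, 0 to 1 against the ICM, 0 to 2 for the interaction and 0 to 1 between the MUT stages. Without MUT embryo 8 Sox2 was called against EPI, against the ICM, in the interaction and between the MUT stages. Factors per cell at 10 CPM were 7.99 in E3.5 MUT, 8.88 in E3.5 WT/HET, 7.93 in EPI, 5.77 in E4.5 MUT and 4.17 in PrE, and 4.63 in PrE at 5 counts. With embryo as a replicate block, 7 of 10 factors were higher in EPI than in PrE, as without it, and the log2 fold change of Nanog was 9.62 in place of 7.90 and that of Klf2 6.14 in place of 4.11. The block changed no call, since these levels were not tested.

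Log2 fold changes that turned sign were all of factors not called. With cells weighted equally these were Prdm14 at E3.5 (-0.18), Nanog against EPI (-2.03), Zfp42 against PrE (-0.27), Klf5 against the ICM (-0.65), Klf4 in the interaction (-0.96), Klf4 between E3.5 and EPI (-0.87), and Klf2 (-0.10), Klf4 (-1.41), Tfcp2l1 (-0.40) and Zfp42 (-0.49) between the MUT stages. With WT controls only they were Tbx3 at E3.5 (-0.0085), Klf4 (-0.049) and Klf5 (0.011) in the interaction and Klf2 between E3.5 and EPI (0.088). Klf5 was 0.20 in the interaction with EPI as control, and 0.011 between the MUT stages with DESeq2 or its size factors.

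With 1 embryo left out, the fold changes that turned sign ran over these ranges. At E3.5 Tbx3 ran from -0.17 to 0.17 and Prdm14 from -1.15 to 0.81. Against EPI Klf4 ran from -1.18 to 0.46 and Tfcp2l1 from -0.41 to 0.99. Against PrE Sox2 ran from -2.90 to 4.46, Klf4 from -1.40 to 0.19 and Zfp42 from -0.10 to 0.62. Against the ICM Sox2 ran from -7.27 to 0.11, Klf4 from -1.36 to 0.28, Klf5 from -0.30 to 0.43 and Prdm14 from -11.25 to 0.49. In the interaction Sox2 ran from -7.05 to 0.29, Klf4 from -0.97 to 0.69, Zfp42 from -0.76 to 0.030 and Prdm14 from -11.25 to 0.66. Between E3.5 and EPI Klf2 ran from -0.17 to 0.045 and Klf4 from -0.15 to 0.18. Between the MUT stages Klf2 ran from -0.23 to 1.07, Klf4 from -0.82 to 0.85, Klf5 from -0.48 to 0.21, Tfcp2l1 from -0.75 to 0.68, Zfp42 from -0.40 to 0.41 and Prdm14 from -10.53 to 0.92. Between HET and WT Esrrb ran from -0.26 to 0.0027, Klf2 from -0.57 to 0.27, Tfcp2l1 from -0.18 to 0.077, Tbx3 from -0.17 to 0.026 and Prdm14 from -1.87 to 0.12. The causes were not tested. With 2 MUT embryos at E4.5, leaving out either left a lone embryo that was assumed to vary like the controls.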
